A study of Mus musculus with 96 samples.

Results

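The principal neurons of the lateral superior olive (pLSOs) compared here are those labelled by their firing pattern as Onset or Sustained, 52 of the 96 libraries of the series. Members were chosen by the firing_pattern label of each sample, pLSO_Onset or pLSO_Sustained. Of the 56 neurons with these labels, 3 Onset neurons and 1 Sustained neuron were left out because label and expression disagreed, which left 41 Onset and 11 Sustained neurons. The series also holds 30 lateral olivocochlear neurons (LOCs, labelled LOC_Delayed) and 10 negative controls, in which a pipette touched the slice without harvesting a cell. All neurons came from brainstem slices of untreated C57BL/6J mice of both sexes around the onset of hearing, were recorded in whole-cell mode near body temperature, and gave 1 library each from the aspirated cytoplasm (Patch-seq). Each sample also carries 16 electrophysiological labels. Sustained neurons are named by their replicate number, 1 to 12 with number 10 left out.

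pLSOs compare excitation from the ear on the same side with glycinergic inhibition driven by the other ear, and so encode the level difference between the ears. A neuron that fires 1 or a few action potentials (APs) at the start of a current pulse is called Onset, and one that fires throughout is called Sustained. Low-voltage-activated potassium channels of the Kv1 family and hyperpolarization-activated (HCN) channels lower the input resistance of auditory brainstem neurons and are known to favour brief, onset-type responses. The firing pattern was judged from voltage responses to the current pulses that also gave rheobase, AP latency and sag, so these features are close to the measurement that set the label. The labels name no animal. Each group therefore counts as 1 sample, no test was run, and SDs describe the spread over neurons only.

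Input resistance and excitability separated the groups most. Input resistance, the ratio of voltage to current for a small imposed voltage step, was 43.6 ± 22.1 MOhm in Onset neurons (SD, n = 41 neurons). It was 92.0 ± 35.3 MOhm in Sustained neurons (n = 11), 2.11 times as high. The lowest, median and highest values were 16.7, 41.7 and 139.1 MOhm in Onset neurons and 37, 88.8 and 147.4 MOhm in Sustained neurons. The ranges overlapped, but the Sustained neuron had the higher value in 88.9% of the 451 pairs of 1 neuron of each group. An input resistance over 60 MOhm was found in 9 of 11 Sustained and 8 of 41 Onset neurons.

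Rheobase, the smallest current step that evoked an AP, was lower in Sustained neurons. It was 500 ± 155 pA (SD) in Onset neurons and 255 ± 85.0 pA in Sustained neurons, with ranges of 200 to 850 pA and 150 to 450 pA. The Sustained neuron had the higher value in 4.66% of pairs and the same value in 24 pairs, and all 11 lay below the Onset median of 500 pA. Rheobase was at most 300 pA in 10 Sustained neurons and 6 Onset neurons; the exception was Sustained neuron 11 with 450 pA.

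The membrane time constant, which sets how long the membrane integrates input, was 3.35 ± 1.81 ms in Onset neurons and 6.89 ± 3.03 ms in Sustained neurons. Ranges were 0.8 to 8.7 ms and 2.7 to 11.6 ms, and 4 Sustained neurons exceeded every Onset neuron. Capacitance was alike at 0.0761 ± 0.0252 nF and 0.0781 ± 0.0341 nF. It is no separate measurement, since in all 52 neurons it equalled the time constant divided by the input resistance within 5%.

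**Figure D1:**
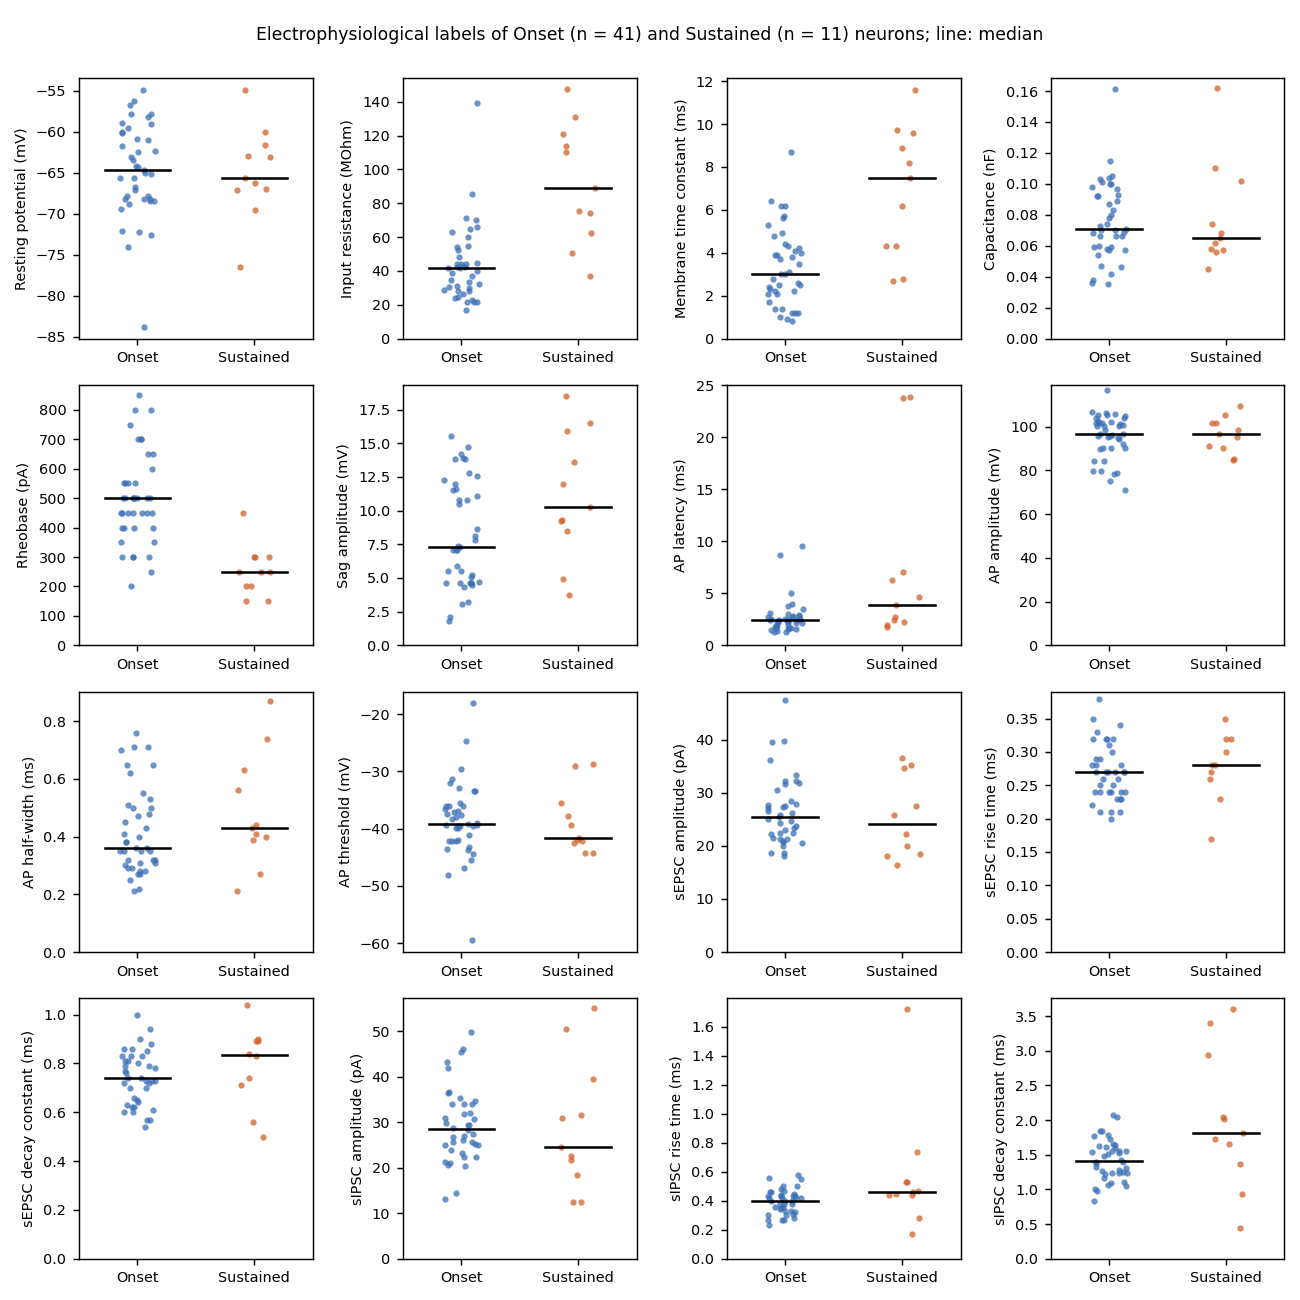
The 16 electrophysiological labels, 1 panel per feature in its own unit, with 1 point per neuron and a line at the group median. Input resistance and time constant were higher and rheobase was lower in most Sustained neurons, whereas resting potential, AP amplitude and threshold, and sEPSC features overlapped almost completely.

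The voltage range from rest to threshold was alike in both groups. Resting potential was -64.7 ± 5.74 mV in Onset and -65.0 ± 5.56 mV in Sustained neurons, and AP threshold was -38.6 ± 6.57 mV and -38.8 ± 5.58 mV. The distance from rest to threshold was 26.1 ± 5.29 mV in Onset and 26.1 ± 4.21 mV in Sustained neurons. The product of input resistance and rheobase, the steady voltage that the rheobase current would give if that resistance held, was 20.7 ± 9.84 mV and 22.3 ± 10.4 mV. In pairs, the Sustained neuron had the higher product in 55.4%, against 88.9% for the input resistance alone.

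The plane of both features did not divide the groups fully. Of 41 Onset neurons, 13 (31.7%) had an input resistance at or above the lowest and a rheobase at or below the highest Sustained neuron. Across neurons of a group, input resistance and rheobase ran in opposite directions, with a Spearman rho of -0.38 over 41 Onset and -0.66 over 11 Sustained neurons, given as a description without a test.

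**Figure D2:**
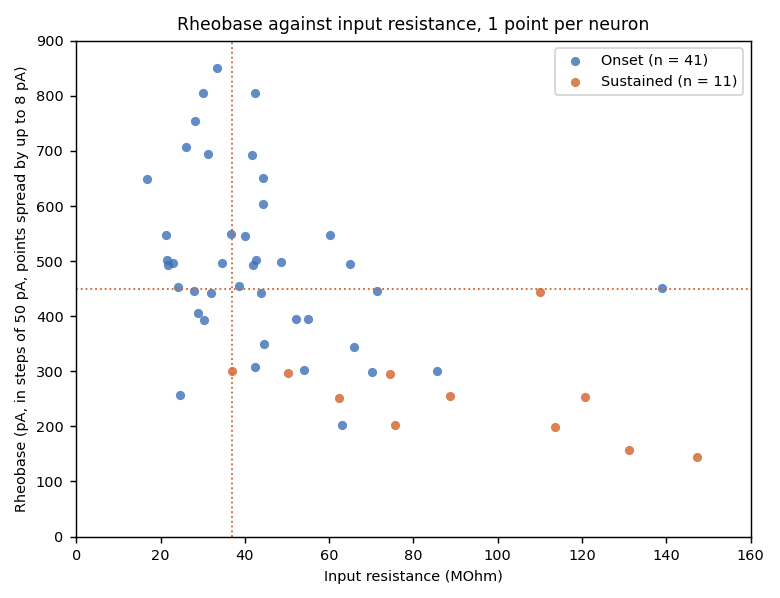
Rheobase in pA against input resistance in MOhm, 1 point per neuron, with dotted lines at the lowest input resistance (37 MOhm) and the highest rheobase (450 pA) of the Sustained neurons. Onset neurons fill the upper left and Sustained neurons the lower right, and 13 Onset neurons lie on the Sustained side of both lines.

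AP latency at rheobase differed mainly through a few neurons. It was 2.70 ± 1.65 ms in Onset and 7.33 ± 8.35 ms in Sustained neurons, with medians of 2.4 and 3.9 ms. Sustained neurons 1 and 3 fired after 23.8 and 23.9 ms, beyond every Onset neuron (highest 9.5 ms), and the other 9 lay between 1.8 and 7 ms. A latency over 4 ms was found in 5 of 11 Sustained and 3 of 41 Onset neurons. AP amplitude was 95.6 ± 10.1 mV and 96.3 ± 8.03 mV, and AP half-width was 0.418 ± 0.150 ms and 0.486 ± 0.197 ms.

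The sag, the partial return of the voltage during a hyperpolarizing pulse that HCN channels produce, was larger on average in Sustained neurons. Its amplitude was 8.20 ± 3.96 mV in Onset neurons (range 1.8 to 15.5 mV) and 11.1 ± 4.71 mV in Sustained neurons (range 3.7 to 18.5 mV). The Sustained neuron had the larger sag in 67.4% of pairs. The pulse was the same current for all neurons, and neurons with a higher input resistance had a larger sag, with a Spearman rho of 0.78 over the 41 Onset neurons and 0.48 over the 11 Sustained neurons.

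Spontaneous synaptic currents overlapped widely, and the kinetics of inhibitory events were slower on average in Sustained neurons. Excitatory events (sEPSCs), labelled in 39 Onset and 10 Sustained neurons, had amplitudes of 26.6 ± 6.46 pA and 25.5 ± 7.69 pA, and decay constants of 0.741 ± 0.110 ms and 0.790 ± 0.165 ms. Inhibitory events (sIPSCs), labelled in 40 Onset and 11 Sustained neurons, had amplitudes of 29.5 ± 8.19 pA and 29.1 ± 14.3 pA. Their decay constant was 1.43 ± 0.290 ms in Onset neurons (range 0.84 to 2.07 ms) and 1.99 ± 0.981 ms in Sustained neurons (range 0.44 to 3.6 ms), and the Sustained neuron had the slower decay in 71.6% of pairs. Sustained neurons scattered on both sides, since 3 of them (numbers 1, 3 and 12 with 3.4, 2.94 and 3.6 ms) decayed more slowly than every Onset neuron and number 5 (0.44 ms) faster than every one. Rise times were 0.395 ± 0.0842 ms and 0.566 ± 0.409 ms, with the higher value in the Sustained neuron in 70.5% of pairs. The latter mean contains Sustained neuron 12 with 1.72 ms, and the medians were 0.4 and 0.46 ms.

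Compared with LOCs, the other neuron class of the nucleus, both groups of pLSOs had a low input resistance. The median LOC had 484.5 MOhm, a time constant of 19.85 ms, a rheobase of 0 pA, a sag of 1 mV and an AP latency of 19.9 ms. The latencies of Sustained neurons 1 and 3 were above the LOC median, while the highest input resistance of a Sustained neuron, 147.4 MOhm, was far below it.

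The transcript values are TPM (transcripts scaled to 1000000 per library) rounded to whole numbers. Rows are ordered by Ensembl identifier, and the first 5000 of 38887 rows held 94.5% of all TPM in these neurons. The median detected value was 941 TPM in the first 1000 rows and 6 TPM after row 10000. Levels of different genes were therefore not compared, and each value is set only against the same gene in the other group. Detection means 1 TPM or more in a neuron. Detected genes numbered 2488 in the median Onset neuron (1333 to 4022) and 2618 in the median Sustained neuron (1969 to 6276), against 958.5 in negative controls (285 to 3104). Sustained neurons 1 and 2 held 6276 and 4751 genes, more than any Onset neuron, and the other 9 held 1969 to 3436. 1 negative control with 3104 genes held as many genes as neurons do, so values in the negative controls are given as labelled.

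The pLSO marker genes were found in both groups, partly because neurons whose label and expression disagreed had been left out. The pLSO and LOC marker lists also came from the study's comparison of these same neurons, so they are no independent check. Spp1 (osteopontin) was detected in 39 of 41 Onset neurons with a median of 321 TPM and in all 11 Sustained neurons with a median of 106 TPM. Among Sustained neurons it was lowest in numbers 3 (1 TPM) and 1 (3 TPM), and the lowest Onset neurons had 0 TPM. Negative controls reached 782 TPM of Spp1, above both medians, and the neurons left out had 0 or 1 TPM. Of 15 pLSO marker genes, the median Onset neuron had 12 and the median Sustained neuron 11, but their summed level was lower in Sustained neurons, with a median of 444 TPM (51 to 1057) against 824 TPM (210 to 1565). Lpgat1, an acyltransferase of lipid metabolism, was at a median of 199 TPM in Onset and 29 TPM in Sustained neurons. Of 14 LOC marker genes 6 passed the filter described below, 5 of them found in a larger share of Sustained neurons. Their median difference was 13.5 points, Sustained minus Onset, against 3.99 for all genes. Past 30 points was 1, with Sustained neurons higher, beside 4.58% of all genes. The median neuron of each group held 2 of the 14, and their summed level had a median of 33 TPM (11 to 1201) in Sustained and 8 TPM (0 to 1608) in Onset neurons. The LOC peptide gene Ucn was listed at 0 in all 52 neurons. It was at 28 TPM in the Sustained neuron left out, so this 0 partly follows from the choice of members. Calca, which encodes the LOC transmitter CGRP, was at most 14 TPM in Onset neurons, but reached 43 and 58 TPM in Sustained neurons 3 and 8. The share of neurons with Calca was nevertheless slightly larger in the Onset group. Negative controls reached 83 and 315 TPM of Calca, above both Sustained values.

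Across the 7344 genes detected in at least 6 of the 52 neurons, 336 genes (4.58%) were found in a share of Sustained neurons that was higher by at least 30 percentage points, and 68 genes (0.926%) in a share of Onset neurons that was higher by as much, 5.5% in either direction. The median gene differed by 3.99 points, Sustained minus Onset. The chances of the directions were unequal, since 6729 genes could reach the limit upwards in Sustained neurons and 2925, those in 30% or more of Onset neurons, could reach it downwards. The surplus also rested on 2 libraries. Without Sustained neurons 1 and 2 the counts were 187 and 212, and the median gene differed by -1.08 points. Of the 336 genes 154 remained past the limit without these neurons, and of the 68 genes 67 did. These 2 libraries held the most detected genes, and leaving them out moved the median gene towards Onset neurons, so the 67 are no sign of stability. By mean log2(TPM + 1), 967 genes (13.2%) were higher by at least 1 in Sustained neurons and 488 genes (6.64%) in Onset neurons, 19.8% in either direction. Without Sustained neurons 1 and 2 these counts were 728 and 881.

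**Figure D3:**
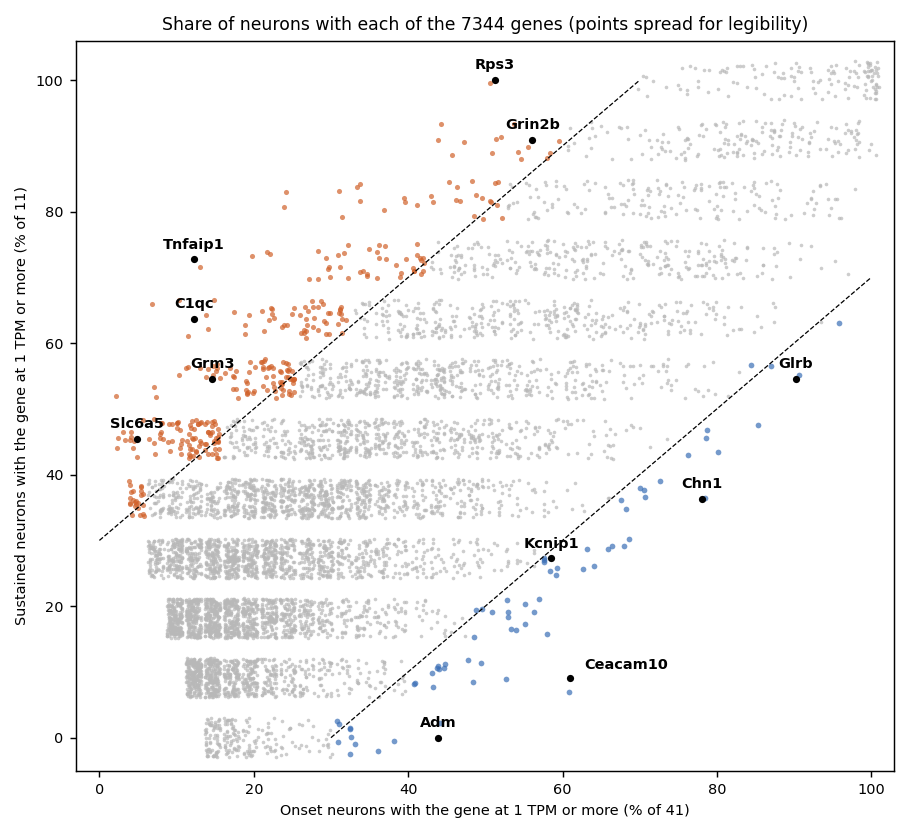
Share of 11 Sustained neurons against share of 41 Onset neurons that held a gene at 1 TPM or more, 1 point for each gene tested, spread slightly so that equal values can be seen. Dashed lines mark a difference of 30 percentage points, with 336 genes above (orange) and 68 below (blue), and black points are genes named in the text.

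Most ion channel genes that passed the filter differed by less than 30 points between the groups. Kcna1, the Kv1.1 subunit of the low-voltage-activated current, was detected in 30 of 41 Onset neurons (median 5 TPM, highest 77) and 9 of 11 Sustained neurons (median 11 TPM, highest 63). Kcna6 was found in 8 Onset and 0 Sustained neurons, where 0 of 11 allows a share of up to 27.3%. The ERG channel gene Kcnh7 was in 32 Onset and 8 Sustained neurons, and Kcnc1, which encodes a Kv3 channel for fast repolarization, in 14 and 4. None of the members of the lists of Kv1, Kv2 to Kv4, ERG-type, leak, inward rectifier and calcium- or sodium-activated channels that passed the detection filter reached 30 points. Most genes of these lists, such as Kcna2 in 4 Onset neurons only, did not pass the filter.

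Kcnip1, which encodes a calcium-sensing auxiliary subunit of A-type Kv4 channels, was past 30 points. It was detected in 24 Onset neurons (58.5%, exact 95% interval 42.1 to 73.7%, counting error only), with a highest value of 66 TPM, and in 3 Sustained neurons (27.3%, 6.02 to 61.0%), in which it had 1, 1 and 28 TPM. Its intervals overlapped. The difference of -31.3 points was close to the limit, at -28.5 points when 1 of the Sustained neurons 3 to 9 or 11 was left out, -29.5 points with all 56 labelled neurons and -29.9 points at 10 TPM. The Kv4 pore genes Kcnd1, Kcnd2 and Kcnd3 were listed at 0 in every Onset neuron. In Sustained neurons Kcnd1 was also at 0, and Kcnd2 and Kcnd3 reached at most 1 and 3 TPM. Kcnq3, a subunit of the M-current that slows repetitive firing, was in 12 Onset and 6 Sustained neurons, and Hcn2 and Hcn4 were in 4 and 2 Onset neurons and in no Sustained neuron.

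Sodium and calcium channel genes were shared by both groups. None of 11 sodium channel and 10 calcium channel genes that passed the filter reached 30 points, and their median differences were 3.33 and 0.67 points, against 3.99 points for all genes. Scn1a (Nav1.1) was detected in 36 Onset and all 11 Sustained neurons, Scn8a (Nav1.6) in 21 and 6, and Cacna1a (P/Q-type) in 21 and 7. The beta subunit gene Cacnb1, singled out after its values were seen, did not pass the filter, with 4 Sustained and 0 Onset neurons.

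**Figure D4:**
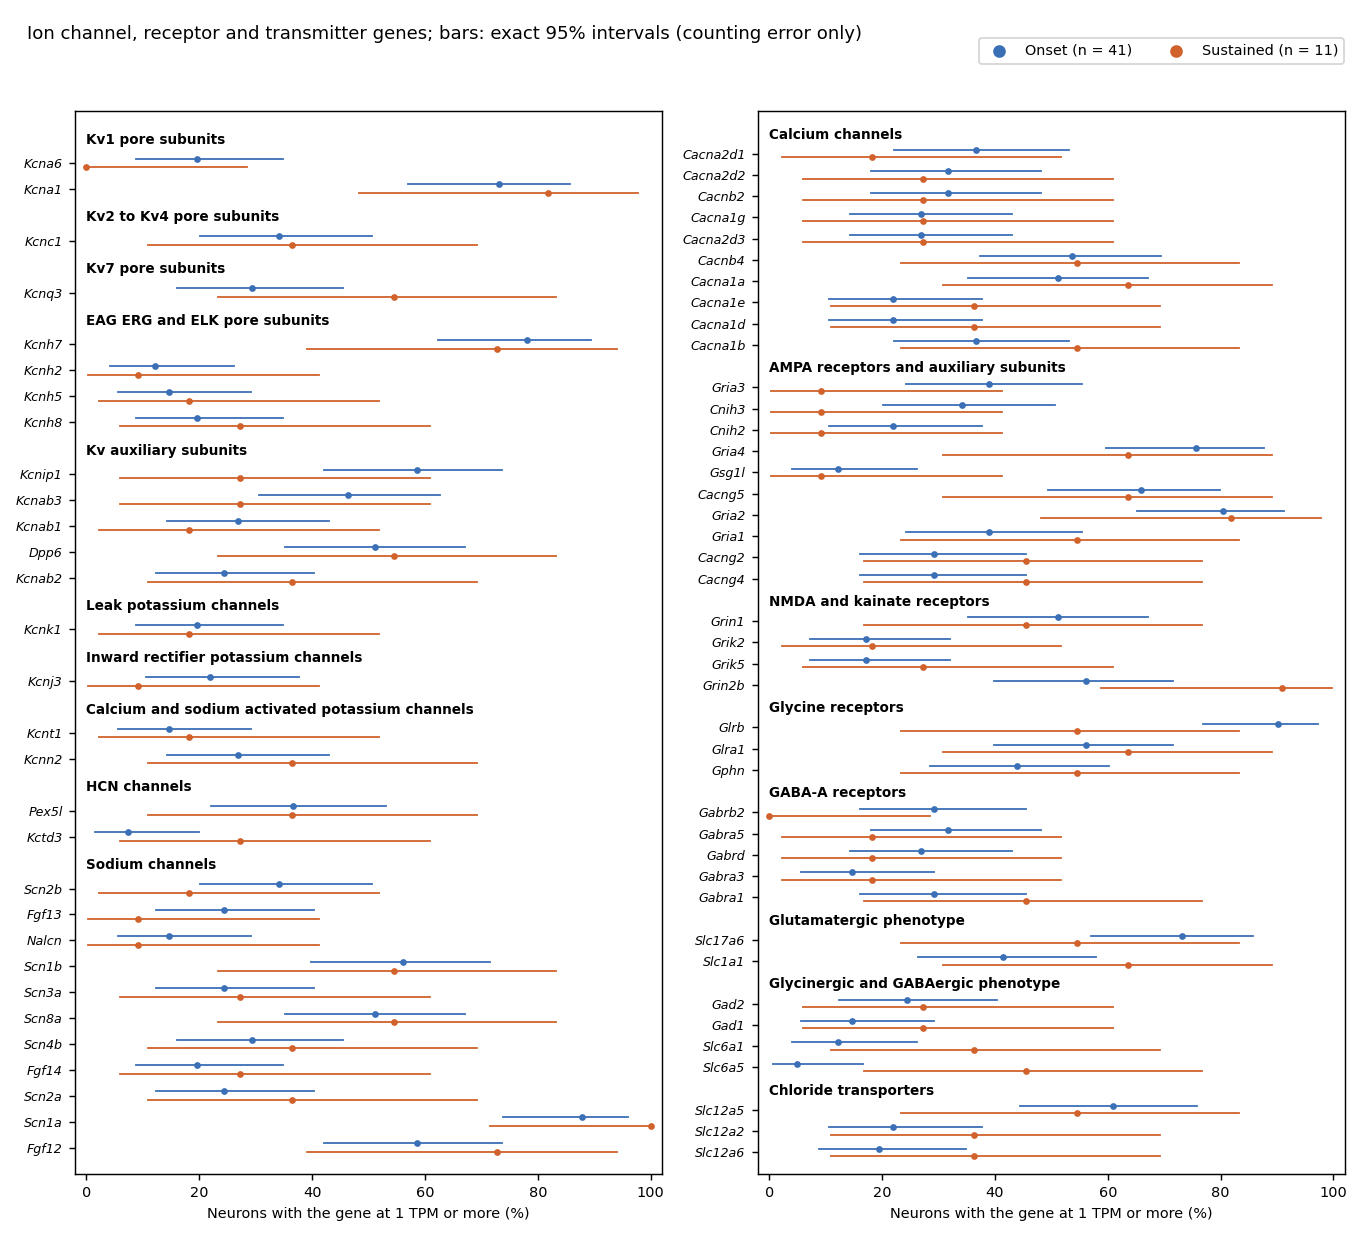
Percentage of Onset (blue) and Sustained neurons (orange) in which ion channel, receptor, transmitter and chloride transporter genes that passed the filter were at 1 TPM or more, grouped by list, with exact 95% intervals for counting error. Most intervals overlap widely, and those of Slc6a5, at most 16.5% in Onset and at least 16.7% in Sustained neurons, do not.

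Of the glycine receptor genes, Glrb differed. Glrb (chromosome 3, 80843599 to 80913660, minus strand), the beta subunit that ties glycine receptors to the scaffold gephyrin, was detected in 37 of 41 Onset neurons (90.2%, 76.9 to 97.3%) and 6 of 11 Sustained neurons (54.5%, 23.4 to 83.3%). Its lowest, median and highest values were 0, 67 and 243 TPM in Onset neurons and 0, 1 and 44 TPM in Sustained neurons, so no Sustained neuron reached the Onset median. Mean log2(TPM + 1) was 5.21 ± 2.53 and 1.97 ± 2.25. The difference of -35.7 points became -45.8 points without Sustained neurons 1 and 2 and -25.8 points with all 56 labelled neurons. Glrb was listed at 0 in all 10 negative controls. Glra1, the adult alpha subunit, showed no such difference, with 23 Onset and 7 Sustained neurons, nor did the gephyrin gene Gphn, with 18 and 6.

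GABA-A receptor genes did not reach 30 points in either direction. Gabrb2, encoding a beta subunit, was nearest, in 12 Onset and 0 Sustained neurons (-29.3 points), with up to 4892 TPM in Onset neurons. Among AMPA receptor genes, Gria3 was in 16 Onset neurons, with up to 4784 TPM, and in 1 Sustained neuron with 20 TPM (-29.9 points). Gria2 was in 33 Onset and 9 Sustained neurons and Gria4, the fast subunit of auditory neurons, in 31 and 7. Of the NMDA receptor genes, Grin2b, whose subunit gives slow currents, was in 23 Onset (56.1%) and 10 Sustained neurons (90.9%), with medians of 1 and 7 TPM, and Grin1 was in 21 and 5. At a threshold of 10 TPM the difference for Grin2b was 10.2 points in place of 34.8.

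Of the transmitter genes, Slc6a5 was found in a larger share of Sustained neurons. Slc6a5 (chromosome 7, 49910146 to 49963856, plus strand) encodes GlyT2, the transporter by which glycinergic neurons reload glycine. It was detected in 2 of 41 Onset neurons (4.88%, 0.596 to 16.5%), with 3 and 11 TPM, and in 5 of 11 Sustained neurons (45.5%, 16.7 to 76.6%). In the latter it had 40, 18, 1, 70 and 1 TPM in numbers 1, 2, 9, 11 and 12, so 2 of the 5 rest on a value of 1. The difference was 40.6 points, 28.5 points without Sustained neurons 1 and 2 and 24.8 points at 10 TPM. In the negative controls it was in 1 of 10 with 1 TPM. An Onset-labelled neuron left out of the comparison held 98 TPM of Slc6a5, more than any neuron compared. Slc17a6, the vesicular glutamate transporter VGLUT2, was in 30 Onset (73.2%) and 6 Sustained neurons (54.5%). Slc6a5 without Slc17a6 was found in 3 Sustained and 0 Onset neurons, and neither gene in 2 and 11. Gad1 and Gad2, which make GABA, were in 3 and 3 Sustained and 6 and 10 Onset neurons.

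**Figure D5:**
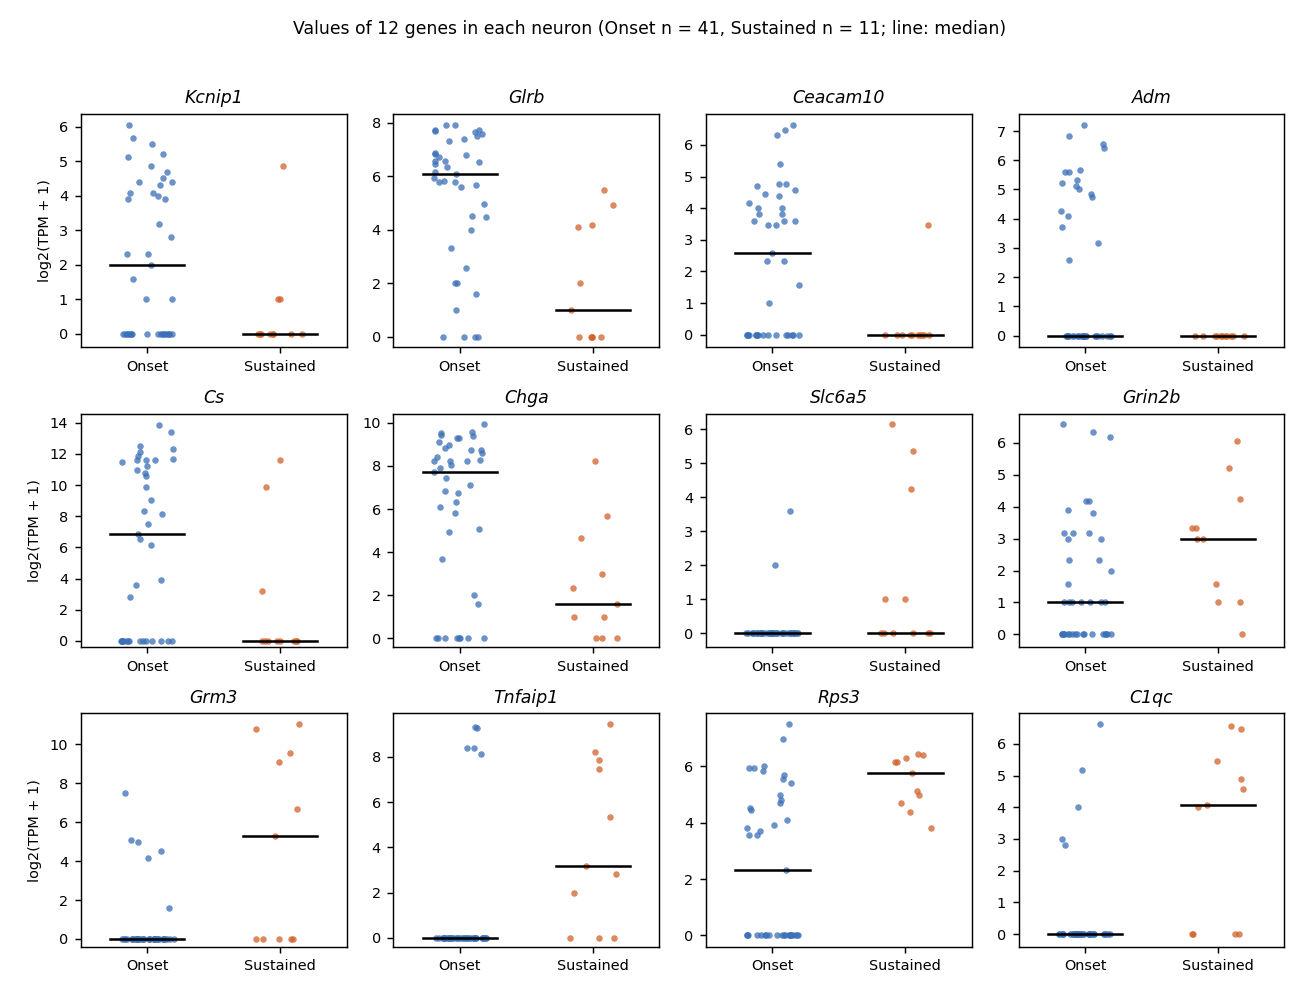
Values of 12 genes as log2(TPM + 1) in each neuron, with a line at the group median. Ceacam10 and Adm are at or near 0 in all but 1 or no Sustained neuron, whereas Rps3 is above 0 in all 11.

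Of a list of 21 metabotropic receptors for glutamate, GABA and other transmitters, 7 passed the filter, all for glutamate or GABA, and 2 of them were past 30 points with Sustained neurons higher, beside 4.58% of all genes. Grm3, coupled to inhibition of adenylate cyclase, was in 6 of 11 Sustained neurons with 38 to 2091 TPM and in 6 of 41 Onset neurons with at most 178 TPM, but also in 1 of 10 negative controls with 1497 TPM. Grm5, coupled to calcium release, was in 5 Sustained and 4 Onset neurons, with at most 37 and 10 TPM.

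Genes of energy supply were mixed. Of 20 citrate cycle genes, Cs (citrate synthase) was detected in 26 Onset and 3 Sustained neurons and Sdhc, a subunit of succinate dehydrogenase, in 23 and 2. Idh1, a cytosolic isocitrate dehydrogenase, was in 10 and 7. Past 30 points were thus 2 with Onset and 1 with Sustained neurons higher, beside 0.926% and 4.58% of all genes. By any amount, 14 of the 20 were in a larger share of Sustained and 5 of Onset neurons. The median of the 20 was 8.31 points, against 3.99 for all genes. Cs had 8, 923 and 3108 TPM in the 3 Sustained neurons and a median of 113 TPM in Onset neurons, and was in 3 of 10 negative controls with up to 4974 TPM. Among 77 genes of oxidative phosphorylation, Sdhc and Ndufs6 were past 30 points, both with Onset neurons higher, beside 0.926% of all genes. The median of the 77 was 0 points, against 3.99 for all genes. By level, 12 of the 77 were higher by at least 1 in mean log2(TPM + 1) in Onset neurons and 1 in Sustained neurons, beside 6.64% and 13.2% of all genes. No glycolysis gene of 16 reached 30 points. Atp1b1, a subunit of the sodium pump, was in all 52 neurons.

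Ribosomal protein genes were near the background of all genes. Of 78 cytosolic members, 4 were past 30 points with Sustained neurons higher (Rps3, Rps27l, Rpl7 and Rpl36a) and 1 with Onset neurons higher, beside 4.58% and 0.926% of all genes, and the list median was 6.21 points against 3.99 for all genes. The median Sustained neuron held 50 of the 78 genes and the median Onset neuron 55. Rps3 was in all 11 Sustained neurons, with 13 to 86 TPM and a median of 53, and in 21 of 41 Onset neurons, with a median of 4 and a highest value of 181 TPM. It was in 5 of 10 negative controls with up to 33 TPM. Reads of such genes can be shared with processed copies, so their values are uncertain.

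Structural genes were common to both groups. Pvalb, the calcium buffer parvalbumin, was in every neuron, with a median of 3972 TPM in Onset and 2129 TPM in Sustained neurons. Nefm, Tuba1b, Stmn3 and Map1b were also in all 52 neurons, and none of 19 cytoskeletal, 10 axon initial segment and 14 heat shock genes reached 30 points. Of 33 genes of vesicle release, Rph3a reached it (8 Onset, 6 Sustained), and of 6 perineuronal net genes Hapln4 (6 and 5). Both were higher in Sustained neurons, as were 4.58% of all genes. S100a10, a calcium-independent annexin partner, was in 9 Onset and 6 Sustained neurons.

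Transcription factors past 30 points were Satb1, Tshz3 and Lhx9, all more frequent in Sustained neurons, 3 of 29 that passed the filter, beside 4.58% of all genes. None of the 29 was past it with Onset neurons higher, beside 0.926% of all genes. Satb1, a chromatin organizer, was in 5 Sustained neurons with 2 to 467 TPM and in 3 Onset neurons. Tshz3 was in 6 and 9 and Lhx9 in 5 and 6. Rorb, a pLSO marker, was in 9 and 29 and Maf in 9 and 36.

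Among the genes with the largest share differences were several outside the ion channel lists. Furthest in the direction of Onset neurons was Ceacam10, a cell adhesion molecule, in 25 Onset neurons (61.0%) and in Sustained neuron 8 alone, with 10 TPM. Adm, the vasodilator peptide adrenomedullin, was in 18 Onset neurons with 5 to 148 TPM and in 0 of 11 Sustained neurons. Chn1, a Rac-inhibiting signalling protein of axon guidance, was in 32 Onset and 4 Sustained neurons, and Ptgds, prostaglandin D2 synthase, in 28 and 3. The others were Gabarap (28 and 3), Cux2 (24 and 2), Ghitm (35 and 5), Med10 (20 and 1) and Adk (20 and 1). Adm and Ceacam10 were in 0 and 1 of 30 LOCs. Some of these genes were high in single negative controls. Ceacam10 was in 3 of 10 controls with up to 229 TPM, above the highest Onset neuron (99 TPM), Ptgds in 1 with 17111 TPM, above the highest Onset neuron (4931 TPM), and Cux2 in 1 with 56 TPM, above the highest Onset neuron (43 TPM). Adm was in 1 control with 2 TPM and Chn1 in 2 with up to 6 TPM.

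Higher in Sustained neurons was first Tnfaip1, a ubiquitin ligase adaptor, in 8 of 11 Sustained neurons with 3 to 698 TPM and in 5 of 41 Onset neurons with 280 to 647 TPM. Pik3c2b, a lipid kinase, and Car10, a carbonic anhydrase-related protein, were each in 9 Sustained and 10 Onset neurons, but Car10 had 1 TPM in 5 of the 9. Then came Ccz1 (7 Sustained and 3 Onset neurons), Prmt7 (7 and 4), Hnrnpll (8 and 8), Gm49342 (6 and 1), C1qc (7 and 5), Atp6v0e (8 and 9) and H2afy (8 and 9). Prmt7 reached at most 5 TPM in Sustained neurons, and at 10 TPM its difference was -2.44 points in place of 53.9. The shares of Tnfaip1, Hnrnpll, Gm49342, C1qc and Atp6v0e in Sustained neurons stayed at least 30 points higher at 10 TPM. For Atp6v0e the difference was 53.2 points. It was larger still for C1qc, a microglia marker treated below, which had at least 15 TPM in each of its 7 Sustained neurons. In the 10 negative controls Atp6v0e, Prmt7 and Gm49342 were listed at 0, Tnfaip1 was in 1 with 10 TPM, and Pik3c2b was in 3 with up to 76 TPM.

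Ranked by mean log2(TPM + 1), the genes highest in Onset neurons were Hbp1 (-4.15), Ptgds (-3.91), Cs (-3.86), Chga (-3.56), Tmem147 (-3.25), Glrb (-3.24), Uba1 (-3.24), Sdhd (-3.23), Gabarap (-3.22) and Cnih1 (-3.15). Chga, chromogranin A of dense-core vesicles, differed in level more than in share. It was in 33 Onset and 8 Sustained neurons, but with a mean of 266 TPM against 35.8, and 9 TPM without Sustained neuron 2, which had 304 TPM. Those highest in Sustained neurons were Atp6v0e (5.30), Txn2 (5.28), Vps50 (5.01), Wdr1 (4.53), Ankrd28 (4.41), Cd83 (4.20), Use1 (4.09), Grm3 (4.09), Narf (4.08) and Kif5b (3.89). Kif5b, a kinesin motor of axonal transport, was in all 11 Sustained and 29 Onset neurons. It was also in 6 of 10 negative controls with up to 7483 TPM, above the highest neuron of either group (6537 TPM). Controls also reached 12674 TPM of Uba1 and 11069 TPM of Tmem147, above the highest Onset neurons (10637 and 7036 TPM). Ankrd28, Use1, Narf, Glrb and Cnih1 were at 0 in all 10 controls.

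Microglia genes were found in a larger share of Sustained neurons. Of 12 microglia markers 10 passed the filter. Of these, 3 (C1qc, Aif1 and Ctss) were past 30 points with Sustained neurons higher, beside 4.58% of all genes. The median difference was 25.3 points, against 3.99 for all genes. C1qc, a complement subunit, was in 7 of 11 Sustained and 5 of 41 Onset neurons. The summed level of the 12 markers was 1 to 6471 TPM in Sustained neurons (median 712) and 0 to 5128 TPM in Onset neurons (median 72). None of the 12 was at 0 in every neuron of a group, but Cx3cr1 and Tmem119, which define microglia, were each in 1 Sustained neuron (number 1) and in 3 and 2 Onset neurons. At least 5 of the 12 markers were detected in 5 of 11 Sustained and 8 of 41 Onset neurons. Without these neurons the counts past 30 points were 388 and 391, over 6 Sustained and 33 Onset neurons, and their part in the differences of single genes was not tested. Astrocyte and oligodendrocyte markers had medians of 5.32 and 16.9 points over 7 genes each, Pecam1, the 1 vascular marker that passed the filter, differed by 10.2 points, and Cspg4 and Olig2 were listed at 0 in all 52 neurons.

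Single genes held to different degrees when libraries were left out. Past 30 points in each of 3 settings were 107 of the 336 and 60 of the 68 genes. The first setting kept only the 36 Onset neurons within the Sustained range of detected genes. The others left out Sustained neurons 1 and 2, or the neurons rich in microglia markers. The first does not match the groups, since Sustained neurons 1 and 2 still held more genes than any Onset neuron. Each of these 3 settings moved the median gene towards Onset neurons (2.53, -1.08 and -1.52 points against 3.99), which favours genes higher there. At 10 TPM, 103 of the 336 and 17 of the 68 genes stayed past 30 points. With all 56 labelled neurons, 234 and 42 did. Glrb, Kcnip1, Cs, Sdhc, Adm, Ceacam10, Chn1 and Ptgds were among the 60, although Kcnip1 fell short of 30 points when some single Sustained neurons were left out, and Rps3, Satb1, Tnfaip1, Car10, Aif1 and C1qc among the 107. Grin2b, Slc6a5, Grm3, Grm5, Tshz3 and Lhx9 were not, with lowest differences of 22.7, 28.5, 29.8, 23.6, 15.2 and 4.55 points.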

How the data were processed

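Patch-seq values of 41 Onset and 11 Sustained neurons were compared. The deposited score is TPM rounded to whole numbers, computed by the authors per gene and library, and sums to 999773 to 1000026 TPM per library. They hold no read counts, so the depth is unknown and intervals cover counting of neurons only. The submitters' processing notes name FastQC, Trim Galore 0.4.2, STAR, Picard 1.115, featureCounts and mm10. Names and positions were taken from Gencode vM21 (GRCm38), in which 37570 of 38887 genes matched.

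The electrophysiological labels were summarised per group with mean, SD, median, range and the share of neuron pairs. For genes detected (1 TPM or more) in at least 6 neurons, shares with exact Clopper-Pearson 95% intervals and means of log2(TPM + 1) were compared with Python 3.11.15, pandas 2.3.3 and SciPy 1.17.1, after tests on simulated data. Each group counts as 1 sample, so no test was made. Named were the 10 genes with the largest difference in share and in log2 level in each direction (for level, genes in at least 50% of the higher group), and gene-list members that passed the filter. Members, lists and thresholds were chosen with earlier results of these data known. Alternatives were all 56 labelled neurons, other thresholds, pseudocounts, filters and scaling, Onset neurons within the Sustained range of detected genes, and leaving out neurons. Some genes are not reported here.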

Additional observations from a re-analysis of the deposited data

Results flagged for a closer look

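A Sustained neuron left out of the comparison (number 10) held 1887 TPM of Calca, above the highest value of the 10 negative controls, 315 TPM. It was singled out because its library is not used in the comparison and exceeds the controls. Ucn was at 28 TPM in this neuron and at 0 in all 52 neurons compared. In the groups small enough to be checked for a value far from the others, the sEPSC labels of the 10 Sustained neurons, none was found.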

How the results depend on the processing

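With all 56 labelled neurons and with medians, the differences of all 16 electrophysiological features and the 2 derived values moved by less than the SD over Sustained neurons. Leaving out 1 of 11 neurons cannot move a mean by that SD, so this limit says nothing there. The difference in sIPSC rise time fell from 0.171 to 0.0558 ms without Sustained neuron 12. That in AP latency fell from 4.63 to 1.5 ms with medians. That in the product of input resistance and rheobase went from 1.63 to -1.09 mV without Sustained neuron 11. Without each Sustained neuron in turn, differences in input resistance (42.8 to 53.8 MOhm) and rheobase (-265 to -235 pA) kept their direction. The number of detected genes moved by less than its SD over Sustained neurons. The counts of genes depended on the neurons and on the limits. Without 1 Sustained neuron, genes past 30 points numbered 255 to 489 with Sustained and 61 to 134 with Onset neurons higher, and genes past 1 in log2 numbered 826 to 1112 and 464 to 697. Onset neurons were higher past 30 points in 134 genes without Sustained neuron 1. With only Onset neurons within the Sustained range of detected genes they were so in 107 genes. Without Sustained neurons 1 and 2 they were so in 212 genes (187 with Sustained neurons higher). Without neurons with 5 or more microglia markers they were so in 391 genes. By log2 level they were higher in 881 and 1076 genes without these 2 sets of neurons. A threshold of 10 TPM left 177 genes and a filter of 13 neurons 202 genes with Sustained neurons higher past 30 points. A pseudocount of 10 left 340 and 159 genes past 1 in log2, and the filter of 13 neurons left 628 with Sustained neurons higher. Settings that left out neurons 1 and 2 together or neurons rich in microglia markers were chosen after seeing the data. Among single genes, Prmt7 reversed at 10 TPM (-2.44 points). Scaling by 167 genes found in at least 90% of neurons shifted the median log2 difference from 0.09 to 0.13. No paired analysis was possible because the result comes from no test and no numbers pair the neurons. Depth is unknown, so genes missing from a neuron cannot be told from genes missed.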
